A study of Mus musculus with 8 samples.

Results

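The regions described here are the WFS1 ChIP-seq peaks at CpG-rich promoters of C2C12 myoblasts. The peaks called after 30 and after 36 sonication cycles were merged where they overlapped or touched. This gave 22292 combined peaks, 22020 of them on the 19 autosomes. A combined autosomal peak was taken when its centre lay within 1 kb of the nearest 5′ end of a protein-coding gene (its start site) and when the 500 bp to either side of that start site had at least 55% GC and a CpG observed/expected ratio of at least 0.6. The ratio is the number of CG dinucleotides divided by the number that the C and G content alone would give. This rule held for 1879 of the 22292 combined peaks, or 8.43% (95% Wilson interval 8.07 to 8.80%). Other classes served for comparison, namely the 928 peaks within 1 kb of a start site that did not meet the base composition limits (CpG-poor promoter peaks) and the 19213 autosomal peaks over 1 kb from every protein-coding start site (distal peaks).

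The cells were wildtype, proliferating C2C12 myoblasts, an established mouse line that can be made to fuse into myotubes. Their chromatin was crosslinked with DSG and formaldehyde, sonicated, and precipitated with an antibody against WFS1, an integral membrane protein of the endoplasmic reticulum and nuclear envelope. Material of 1 immunoprecipitation gave both libraries, the second after 6 more sonication cycles. They are therefore no replicates of each other, and every comparison describes these 2 libraries only. The series has 8 libraries. The 4 inputs and the ChIP libraries from WFS1 knockout myoblasts that express FlagTag WFS1 were not analysed here, so no value below is set against an input or a control cell line.

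CpG-rich promoters, most of which lie in CpG islands, serve housekeeping genes and many developmental and signal-responsive genes. Their DNA is usually free of CpG methylation, depleted of nucleosomes around the start site and often without a TATA box, and transcription from them can start at several nearby bases and in both directions. Factors that bind GC boxes, such as the SP and KLF families, and factors of the ETS, NRF1, YY1 and NFY groups are typical of them, whereas AP-1, RUNX, TEAD and MyoD sites are typical of distal enhancers of mesenchymal and muscle cells.

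The sequence beneath the peaks gives examples of the class and of its contrast with the other classes. Each sequence is the central 120 bp of a peak on the plus strand of GRCm38, with every CG in capitals, and all windows lie outside annotated exons and masked repeats. The first pair were chosen among CpG-rich promoter peaks that met these conditions. They are the widest with the median CG count of its class, beside the gene of the cytoskeletal linker utrophin, and the one with the most CG, beside the gene of the doublecortin-like kinase Dclk2. Without these conditions, the highest count of the class was 22 CG.
Utrn, chr10:12868393-12868512: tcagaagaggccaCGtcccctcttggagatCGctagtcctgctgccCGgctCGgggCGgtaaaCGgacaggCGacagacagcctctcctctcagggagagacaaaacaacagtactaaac
Dclk2, chr3:86920857-86920976: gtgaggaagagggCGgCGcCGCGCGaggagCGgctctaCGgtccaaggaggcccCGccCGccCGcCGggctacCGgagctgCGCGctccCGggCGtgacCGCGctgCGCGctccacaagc
For contrast, the next pair, under the same conditions, are the widest CpG-poor promoter peak and the widest distal peak with the median CG count of their own class. The first lay at the glutathione transferase gene Gstp2 and the second 175393 bp from Mtdh, the nearest protein-coding gene.
Gstp2, chr19:4046089-4046208: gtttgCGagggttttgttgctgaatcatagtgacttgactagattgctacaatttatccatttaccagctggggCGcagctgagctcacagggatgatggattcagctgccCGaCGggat
Mtdh, chr15:33907242-33907361: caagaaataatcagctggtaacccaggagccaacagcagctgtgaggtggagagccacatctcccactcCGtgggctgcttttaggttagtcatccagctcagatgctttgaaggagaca
The last pair are the widest peaks that met these conditions at genes of cytosolic ribosomal proteins and of the actin cytoskeleton, which had peaks at a larger share of start sites than the class as a whole.
Rpl13a, chr7:45129262-45129381: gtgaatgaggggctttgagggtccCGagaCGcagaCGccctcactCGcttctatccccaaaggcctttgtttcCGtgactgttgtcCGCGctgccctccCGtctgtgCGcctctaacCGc
Pfn1, chr11:70655447-70655566: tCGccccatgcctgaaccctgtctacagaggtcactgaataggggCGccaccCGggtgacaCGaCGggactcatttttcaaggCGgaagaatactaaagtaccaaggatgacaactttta
The Utrn window held 7 CG, the Dclk2 window 20, the Gstp2 window 4, the Mtdh window 1, the Rpl13a window 10 and the Pfn1 window 6. Over the classes, the central 120 bp of CpG-rich promoter peaks held a median of 7 CG (quartiles 4 and 11), those of CpG-poor promoter peaks 4 (quartiles 2 and 8) and those of distal peaks 1 (quartiles 0 and 2). No CG was present in 2.02% of the CpG-rich promoter peaks, in 10.5% of the CpG-poor promoter peaks and in 30.2% of the distal peaks. Because the rule was set on the bases around the start site, these differences describe how the classes were made and are not a result.

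WFS1 peaks were present at a minority of CpG-rich promoters. Of the 8233 CpG-rich start sites (39.6% of 20807 autosomal protein-coding start sites), 1642 had at least 1 peak assigned, a background of 19.9% (19.1 to 20.8%) for all gene counts given further on. Of the 12574 CpG-poor start sites, 824 had a peak, or 6.55% (6.13 to 6.999%), which is 13.4 percentage points fewer (12.4 to 14.4). All intervals cover counting error over start sites or peaks only. Within the CpG-rich class the share with a peak was larger at higher CpG ratios, from 15.6% (13.96 to 17.4%) at ratios of 0.6 to 0.7 to 19.1% at 0.7 to 0.8, 21.4% at 0.8 to 0.9, 23.003% at 0.9 to 1 and 25.6% (21.5 to 30.2%) from 1 upward. GC content showed no such order, with 18.8% at 55 to 60% GC, 19.2% at 60 to 65%, 22.7% (20.8 to 24.6%) at 65 to 70% and 19.9% above 70%. The highest CpG ratios with a peak were those of Anapc11, a subunit of the anaphase-promoting complex (ratio 1.15 around the start site, peak of 713 bp), the activin receptor gene Acvr2a (1.15, 335 bp), Chd7, a chromatin remodeller with peaks of 289 and 242 bp on either side of its start site (1.14), and the remodeller Smarcad1 (1.14, 242 bp).

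The share also differed between autosomes. On chromosome 7, 67 of 528 CpG-rich start sites had a peak (12.7%, 10.1 to 15.8%), and on chromosome 15 this was 118 of 370 (31.9%, 27.3 to 36.8%). Chromosomes 9 (13.4%) and 5 (13.997%) were also low, and chromosomes 3 (26.9%), 10 (26.7%) and 11 (25.4%) were also high. The density of distal peaks per Mb was 5.61 on chromosome 7 and 12.6 on chromosome 15, the lowest and the highest of the 19 autosomes. The measures did not order all autosomes alike, as the plot of both by autosome shows. Chromosome 3 had 7.44 distal peaks per Mb and a high promoter share. Chromosome 19 had 10.5 distal peaks per Mb and a promoter share of 20.3% (16.1 to 25.2%). The part of chromosome copy number or of mapping in these differences was not tested.

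**Figure D1:**
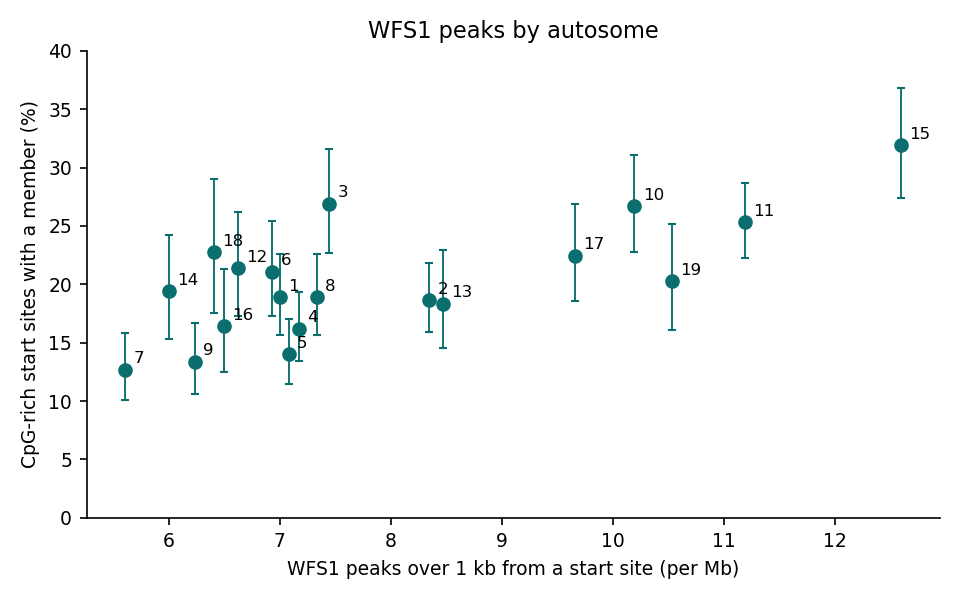
Share of CpG-rich start sites with a WFS1 peak (y axis, percent, bars give the 95% Wilson interval) against the number of distal WFS1 peaks per Mb (x axis) for each of the 19 autosomes, labelled by number. Chromosome 7 is lowest on both axes (12.7% and 5.61 per Mb) and chromosome 15 highest on both (31.9% and 12.6 per Mb).

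The limits of the rule cut through values that lay close together. The farthest peak kept was centred 997 bp from the start site of Acaa2 and the nearest one left out 1000.5 bp from that of Tnrc18. The lowest GC kept was 55.045% at Asns, against 54.945% at Zfp369, which was left out. The lowest CpG ratio kept was 0.6007 at Gpr155, against 0.5996 at Zfp963, which was left out.

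CpG-rich promoter peaks were called in both libraries less often than distal peaks, and their median width after merging was smaller. Of the 1879, 389 held a peak of each list (20.7%, 18.9 to 22.6%), 1080 came from the 30-cycle list only (57.5%) and 410 from the 36-cycle list only (21.8%). Distal peaks were called in both lists in 7232 of 19213 cases (37.6%, 37.0 to 38.3%), which is 16.9 percentage points more than CpG-rich promoter peaks (14.9 to 18.8). CpG-poor promoter peaks were called in both lists in 222 of 928 cases (23.9%), and the interval of their difference from CpG-rich promoter peaks included 0. The median merged width of CpG-rich promoter peaks was 338 bp (quartiles 263 and 461.5, range 195 to 2558 bp). It was 359.5 bp for CpG-poor promoter peaks and 383 bp for distal peaks. Peaks of a single list had like medians at CpG-rich promoters and distally, with 325 and 324 bp (30-cycle list only) and 258 and 255 bp (36-cycle list only). Those called in both lists had medians of 549 and 628 bp. A width of 1000 bp or more was found in 55 CpG-rich promoter peaks (2.93%) and in 6.87% of distal peaks, while 10.1% and 7.65%, respectively, were at the smallest width of their list.

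Merging sets the width of a combined peak that is in both lists, so width was compared instead as each peak has it in its own list, a comparison added after the data had been seen. Of the 1479 peaks of the 30-cycle list at CpG-rich promoters, 399 shared a combined peak with the 36-cycle list (27.0%, 24.8 to 29.3%), against 30.04% at CpG-poor promoters and 47.1% of distal peaks (46.3 to 47.9%). Weighted to the widths at CpG-rich promoters, the distal share was 40.7%, so the difference was smaller at like width and still larger than the counting error. In the 5 width classes of the 30-cycle list, the intervals of CpG-rich promoter and distal peaks overlapped in the narrowest (14.7 and 17.8%) and were apart in the other 4, for example 37.4% (31.8 to 43.3%) and 60.3% (58.5 to 61.9%) at 443 to 617 bp. Of the 820 peaks of the 36-cycle list at CpG-rich promoters, 410 shared a combined peak with the 30-cycle list (46.6 to 53.4%), against 68.2% of distal peaks and 62.2% when weighted by width. Here the intervals overlapped in the narrowest class (40.8 and 43.9%) and the widest (93.5 and 95.5%).

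**Figure D2:**
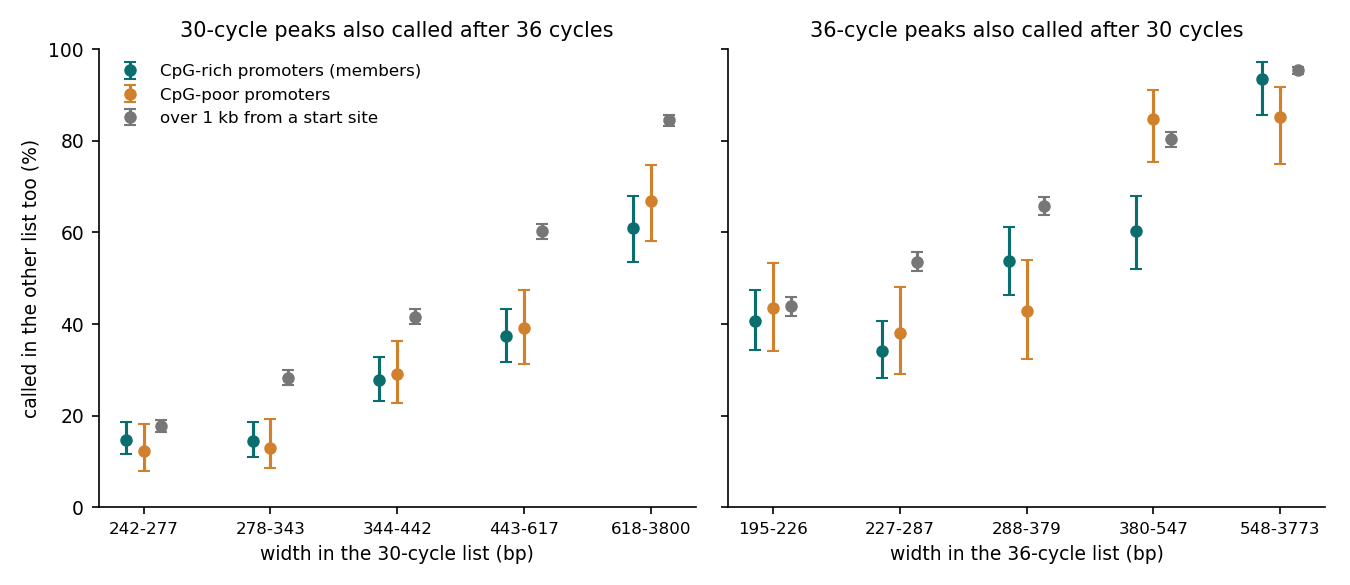
Share of the peaks of each list that were also called in the other list (y axis, percent, bars give the 95% Wilson interval) in 5 width classes of about equal size, by the width in their own list (x axis, bp), for CpG-rich promoter, CpG-poor promoter and distal peaks, with 30-cycle peaks on the left and 36-cycle peaks on the right. At 443 to 617 bp in the 30-cycle list, 60.3% of distal peaks and 37.4% of CpG-rich promoter peaks were also called after 36 cycles.

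A smaller share of CpG-rich than of CpG-poor promoter peaks covered the start site, and in both classes most peaks did not cover it. Centres of CpG-rich promoter peaks had 2 maxima. The 100-bp intervals from 500 to 300 bp upstream held 128 and 137 peaks, and those from 200 to 400 bp downstream held 161 and 159. Between them, the 3 intervals from 300 bp upstream to the start site held 99, 97 and 92 peaks. CpG-poor promoter peaks had 1 maximum, of 105 peaks at 200 to 300 bp downstream, and their intervals between 200 bp upstream and 200 bp downstream held 69, 71, 79 and 81. Centres within 100 bp of the start site made up 11.1% of CpG-rich promoter peaks (9.73 to 12.6%) and 16.2% of CpG-poor ones (13.9 to 18.7%). The start site itself was covered by 399 CpG-rich promoter peaks (21.2%, 19.4 to 23.1%) and by 33.8% of the CpG-poor ones (30.9 to 36.9%). These differences, -5.09 points (-7.94 to -2.41) and -12.6 points (-16.2 to -9.07), exceeded the counting error.

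**Figure D3:**
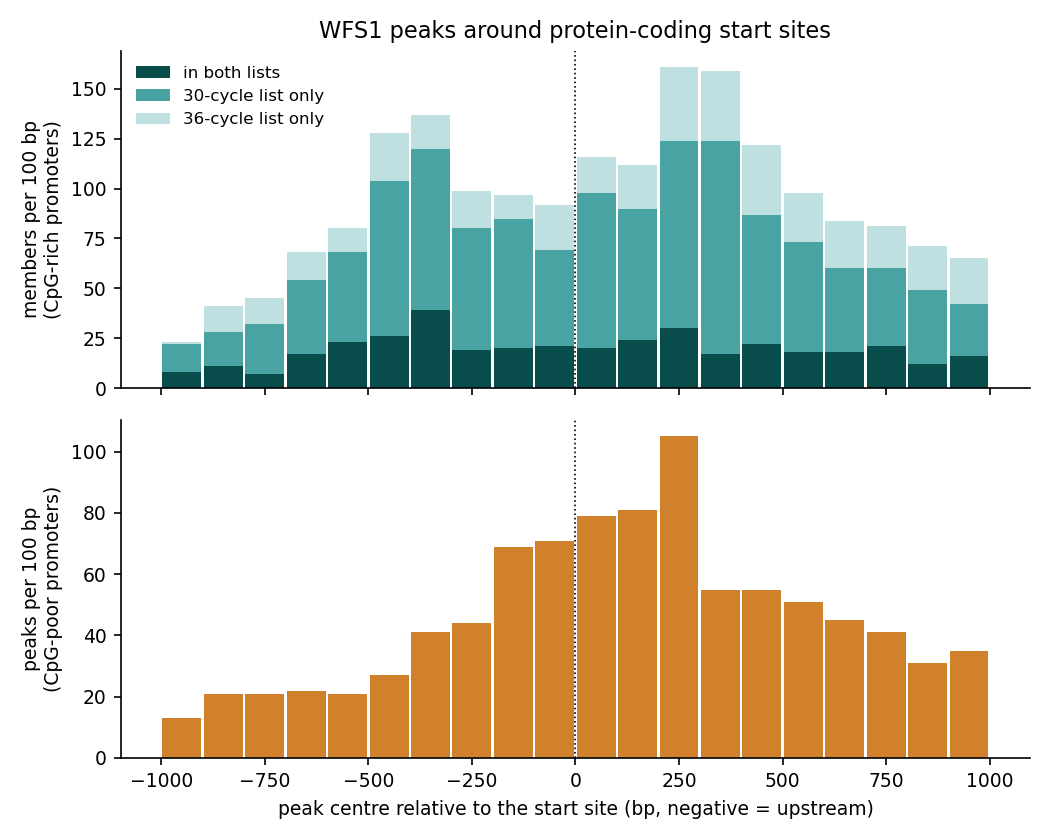
Number of peaks per 100 bp (y axes) by the position of the peak centre relative to the start site (x axis, bp, negative is upstream), for CpG-rich promoter peaks stacked by the list that called them (top) and for CpG-poor promoter peaks (bottom). The top panel has 2 maxima, of 137 peaks at 400 to 300 bp upstream and 161 at 200 to 300 bp downstream, and the bottom panel has 1, of 105 peaks at 200 to 300 bp downstream.

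The side of the start site differed between peaks of the 36-cycle list only and the other CpG-rich promoter peaks, but not clearly between the whole lists. Upstream centres made up 810 of the 1879 CpG-rich promoter peaks (43.1%, 40.9 to 45.4%) and 37.7% of the CpG-poor ones, a difference of 5.39 points (1.53 to 9.19). Among CpG-rich promoter peaks the upstream share was 49.1% in those called in both lists (44.2 to 54.1%), 43.6% in those of the 30-cycle list only (40.7 to 46.6%) and 36.1% in those of the 36-cycle list only (31.6 to 40.9%). The first exceeded the last by 13.0 points (6.15 to 19.7) and the second exceeded it by 7.51 points (1.93 to 12.9). When each list was used alone and whole, the intervals overlapped. The upstream share was then 45.2% (42.7 to 47.8%) for 30 cycles and 42.6% (39.2 to 46.0%) for 36 cycles. The median position was 18.5 bp downstream for peaks of both lists, 84.5 bp for the 30-cycle list only and 249.25 bp for the 36-cycle list only.

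By annotation, the centre lay upstream of the gene in 812 cases (43.2%), in an intron in 519 (27.6%), in a noncoding part of an exon in 382 (20.3%) and in a coding exon in 166 (8.83%). A single peak was found at 1422 start sites, 2 at 203 and 3 at 17. Of the 220 start sites with more than 1 peak, 154 had peaks on both sides of the start site, 44 only downstream and 22 only upstream. The start sites with 3 peaks and the largest summed width were those of Pfn1 (2179 bp), the sialyltransferase gene St3gal1 (1458 bp), Tspyl1 (1377 bp), the MAP kinase phosphatase gene Dusp4 (1324 bp) and the mitochondrial chaperone gene Hspa9 (1193 bp). Pfn1, which encodes the actin monomer-binding protein profilin, had peaks of 1371 bp and 236 bp centred 862 and 48 bp upstream and a peak of 572 bp centred 774 bp downstream. Start sites with another protein-coding start within 1 kb on the other strand had any peak within 1 kb in 366 of 1628 cases (22.5%, 20.5 to 24.6%), and the others in 1450 of 6605 (22.0%, 20.97 to 22.97%), so divergent pairs were not distinguished by this count. By assigned peaks, as in the background of 19.9%, they had 211 of 1628 (12.96%) and the others 1431 of 6605 (21.7%). There each peak counts for its nearest start site only, which lowers the share of divergent pairs.

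The 5 widest peaks of the class were all called in both lists. Nemp1, which encodes a protein of the inner nuclear membrane, had the widest, of 2558 bp at chr10:127666293-127668850, centred in an intron 670 bp downstream of the start site. It joined 1 peak of the 30-cycle list with 2 of the 36-cycle list. Bhlhe41, a repressor of the circadian system, had 2090 bp (chr6:145864823-145866912) centred 310 bp upstream. Irf2bpl, a transcriptional co-regulator, had 2026 bp (chr12:86882917-86884942) centred 868 bp downstream. Hes1, the Notch target repressor, had 1921 bp (chr16:30063615-30065535) centred 191 bp downstream in an intron. Socs2, a suppressor of cytokine signalling, had 1756 bp (chr10:95415573-95417328) centred 730 bp downstream in an intron. The peaks of Nemp1, Bhlhe41 and Irf2bpl had GC contents of 59.7, 59.3 and 69.0%, so they did not differ from the class median of 60.6% in 1 direction.

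Gene lists differed widely in how many of their CpG-rich start sites had a WFS1 peak. Of 15 lists, 5 had intervals above the background of 19.9% and 2 had intervals below it. The lists were chosen with earlier results of these data known, so these numbers of lists depend on that choice. Immediate early and AP-1 genes had peaks at 17 of 27 start sites (63.0%, 44.2 to 78.5%), actin cytoskeleton genes at 22 of 49 (44.9%, 31.9 to 58.7%), integrin and focal adhesion genes at 13 of 29 (44.8%, 28.4 to 62.5%), nuclear envelope and pore genes at 12 of 31 (38.7%, 23.7 to 56.2%) and cytosolic ribosomal protein genes at 21 of 56 (37.5%, 26.0 to 50.6%). Developmental transcription factors had peaks at 10 of 95 (10.5%, 5.82 to 18.3%). Neuronal receptors and channels had peaks at 0 of 37 start sites, with a Wilson upper limit of 9.41% (by the rule of 3 counts, a count of 0 allows a share of up to 8.11%). Neither low share held in every list: with the 30-cycle list alone the developmental factors differed from all CpG-rich start sites by -5.86 points (-10.6 to 1.92), and with the 36-cycle list alone the interval for the neuronal genes included 0.

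**Figure D4:**
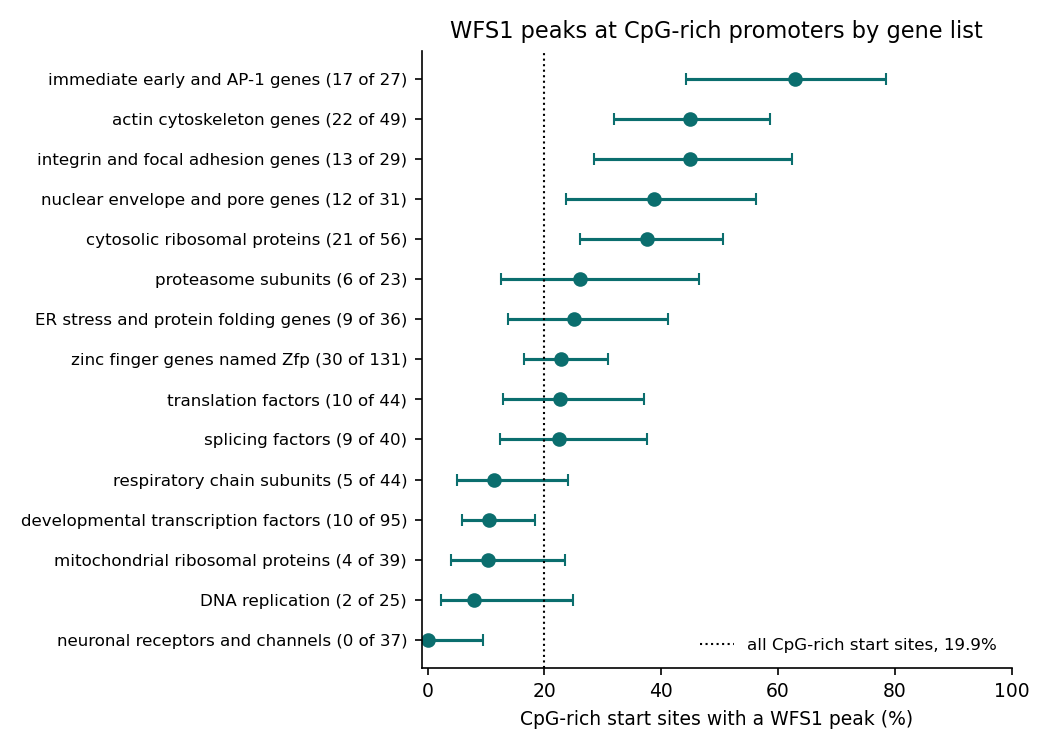
Share of the CpG-rich start sites of each of 15 gene lists that had a WFS1 peak (x axis, percent, points with 95% Wilson intervals), with the counts beside the names and the share of all CpG-rich start sites, 19.9%, as a dotted line. The immediate early list is highest at 63.0% and the neuronal list lowest at 0 of 37.

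Among the immediate early genes, which are transcribed within minutes of a growth stimulus, Fosl2, a subunit of the AP-1 factor, had the widest peak, of 1673 bp, covering the start site at a centre 201 bp downstream and called in both lists. Klf10, a TGF-beta-inducible zinc finger factor, had peaks of 1195 and 816 bp centred 455 bp upstream and 910 bp downstream, both in both lists. Of the 22 peaks of this list, 9 were called in both lists, beside 20.7% (389 of 1879) of all CpG-rich promoter peaks. Fos and Fosb, also AP-1 subunits, and Srf, the serum response factor, were among the 10 genes with a CpG-rich start site and no peak within 1 kb (named after their values were seen).

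At genes of the actin cytoskeleton, Pfn1 had the widest peak, followed by the alpha-actinin gene Actn1 with 1152 bp centred 980 bp downstream and the formin gene Diaph3 with 700 bp centred 484 bp downstream. Of the 33 peaks at these genes, 6 were called in both lists, beside 20.7% of all CpG-rich promoter peaks. At focal adhesion genes, Ptk2, which encodes focal adhesion kinase, had 736 bp centred 342 bp upstream, the LIM domain gene Tes 687 bp centred 720 bp downstream, and Zyx, which encodes zyxin, 596 bp centred 642 bp downstream. The actin gene Actb and the integrin gene Itgb1 had CpG-rich start sites and no peak within 1 kb (named after their values were seen).

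Among genes of the nuclear envelope, where WFS1 also resides, the lamin gene Lmnb1 and the nucleoporin gene Nup107 each had a peak of 452 bp called after 30 cycles only, and the nesprin gene Syne3 had 443 bp called in both lists. The share of this list rested in part on the 36-cycle peaks: with the 30-cycle list alone its excess over all CpG-rich start sites was 9.42 points (-2.68 to 26.9) and no longer lay clear of 0. Cytosolic ribosomal protein genes had wide peaks at Rpl10a (646 bp) and Rpl13a (566 bp). In both lists were 5 of their 25 peaks, near the 20.7% of all CpG-rich promoter peaks. With the 36-cycle list alone their excess was 3.61 points (-2.70 to 14.7) and no longer lay clear of 0. Mitochondrial ribosomal protein genes had peaks at 4 of 39 start sites (10.3%, 4.06 to 23.6%), and respiratory chain subunits at 5 of 44 (11.4%, 4.95 to 24.0%), both with intervals that include the background. With the 36-cycle list alone, the interval for respiratory chain subunits lay below it (-8.89 points, -8.89 to -0.861).

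For the other lists the interval also included 19.9%: proteasome subunits 6 of 23, endoplasmic reticulum stress and protein folding genes 9 of 36, zinc finger genes named Zfp 30 of 131, translation factors 10 of 44, splicing factors 9 of 40 and DNA replication genes 2 of 25. In the endoplasmic reticulum stress list, the widest peaks were at Trib3, a pseudokinase gene induced by stress (696 bp, 30-cycle list only), Atf4, the transcription factor of the integrated stress response (588 bp, both lists), and Xbp1, the factor spliced in the unfolded protein response (582 bp, 36-cycle list only). The Wfs1 gene itself had a CpG-rich start site and no peak within 1 kb. Among developmental factors, the widest peaks were at Hoxc9 (700 bp, both lists), Dlx3 (636 bp, 30-cycle list only) and Hoxa7 (437 bp, both lists).

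CpG-rich start sites with a peak had further WFS1 peaks nearby more often than those without. A further WFS1 peak centred 1 to 50 kb away was present at 1169 of the 1642 CpG-rich start sites with a peak (71.2%, 69.0 to 73.3%) and at 3721 of the 6417 without any peak within 1 kb (58.0%, 56.8 to 59.2%), a difference of 13.2 points (10.7 to 15.7). The nearest further peak lay at a median of 23.1 kb from the former and 38.8 kb from the latter. The difference had the same direction on each of the 19 autosomes and averaged 11.4 points within them, a comparison also added after the data had been seen. Conversely, 23.4% of the CpG-rich start sites with such a further peak had a promoter peak (22.2 to 24.6%), and 14.6% of those without (13.4 to 15.9%). In the immediate early list 26 of 27 start sites had a further peak, in the actin list 45 of 49, in the integrin list 26 of 29, in the developmental list 40 of 95 and in the neuronal list 14 of 37, compared with 60.7% of all CpG-rich start sites. The nuclear envelope list had a further peak at 16 of 31 start sites (51.6%, 34.8 to 68.0%), an interval that includes that value. The promoter share and the share with a further peak did not follow each other in all lists: mitochondrial ribosomal protein genes had a further peak at 26 of 39 start sites (66.7%), respiratory chain subunits at 28 of 44 (63.6%) and proteasome subunits at 10 of 23 (43.5%). Giving every gene the share of its own chromosome placed all 15 lists between 17.5 and 21.7%.

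Motif content distinguished CpG-rich promoters with and without a peak only slightly. Each motif was searched by its letters on both strands of the 500 bp to either side of the start site, and the 174 CpG-rich start sites whose only nearby peak was assigned to a neighbouring gene were left out. AP-1 (TGACTCA) was found at 9.32% of start sites with a peak and 7.39% without (difference 1.93 points, 0.459 to 3.55), TEAD (GGAATGT) at 9.07 and 6.89% (2.19 points, 0.739 to 3.79), CRE (TGACGTCA) at 6.39 and 4.68% (1.72 points, 0.506 to 3.10) and TATAAA at 16.7 and 14.5% (2.16 points, 0.225 to 4.22). Of 17 motifs, these 4 had an interval above 0 and none had one below 0, against 6.54% above 0 of all 2080 hexamers, counted with their reverse complements. For the remaining 13, among them the SP/KLF box GGGCGG (95.2 and 95.1%), NFY CCAAT (62.0 and 62.3%) and the ETS motif CCGGAAG (29.0 and 30.3%), it included 0. From 250 bp upstream to 50 bp downstream of the start site, the AP-1 difference was 0.19 points and included 0 (-0.583 to 1.14). With the 36-cycle list alone, the intervals for AP-1 (1.53 points, -0.452 to 3.91), TEAD and TATAAA included 0, as did that for TATAAA with the 30-cycle list alone. With the 36-cycle list alone, the E-box CAGCTG was more frequent at start sites with a peak (3.79 points, 0.0744 to 7.56) and the ETS motif less frequent (-5.66 points, -8.85 to -2.24). The NRF1 motif was less frequent at start sites with a peak with the 30-cycle list alone (-1.02 points, -1.81 to -0.0223).

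The hexamers with the highest ratio of shares were TTATAA (1.31, 7.19% with a peak and 5.47% without), ATATCG (1.31), ACGATA (1.27, with an interval of the difference that included 0), CGTTAA (1.26) and TATATA (1.26). Of the 2080 hexamers, 136 had an interval of the difference above 0 and 187 had one below 0, together 15.5%. Of the 136, 101 contained CG, while 604 of all 2080 contain it. The median CpG ratio was also higher around start sites with a peak (0.819) than around those without (0.792). Its part in the hexamer shares was not tested.

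Beneath the peak centres, CpG-rich promoter peaks held few of the motifs that were common beneath distal WFS1 peaks. AP-1 lay in the central 200 bp of 63 of the 1879 (3.35%, 2.63 to 4.27%), in 6.47% of CpG-poor promoter peaks (5.06 to 8.23%) and in 19.96% of distal peaks (19.4 to 20.5%). The MyoD-type E-box CAGCTG followed the same order with 9.74, 13.3 and 19.1%, RUNX (TGNGGTT) with 10.5, 13.7 and 19.6%, TEAD with 2.29, 3.02 and 5.87% and TATAAA with 3.67, 5.71 and 10.8%. The SP/KLF box had the reverse order, with 34.0% (31.9 to 36.2%), 23.2% and 5.37%. CRE was found in 1.54% of CpG-rich promoter peaks (1.08 to 2.21%), 1.40% of CpG-poor ones and 0.317% of distal peaks, and the ETS motif in 5.59, 5.603 and 1.15%.

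These classes differ in base composition, which can move such shares. CpG-rich promoters without a peak were therefore cut into windows of 200 bp, weighted to the peaks' distance from the start site and GC content, a comparison added after the data had been seen. Against these windows, AP-1 was 1.92 times as frequent beneath the peaks (3.35 and 1.74%), CRE 2.46 times (1.54 and 0.627%), the E-box CACGTG 1.32 times (5.75 and 4.36%) and TEAD 1.38 times (2.29 and 1.66%). For these 4 the weighted share lay below the interval of the peaks. The windows were not weighted to the CpG ratio, whose median was 0.819 around start sites with a peak and 0.792 around those without. CRE and CACGTG contain CG, and the part of the CpG ratio in their shares was not tested. NFY was less frequent beneath the peaks (15.6%, 14.02 to 17.3%, against 18.3%). For the other 12 motifs the weighted share lay within that interval, among them the SP/KLF box (34.0 and 34.2%), the E-box CAGCTG (9.74 and 9.95%) and the ETS motif (5.59 and 5.46%).

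**Figure D5:**
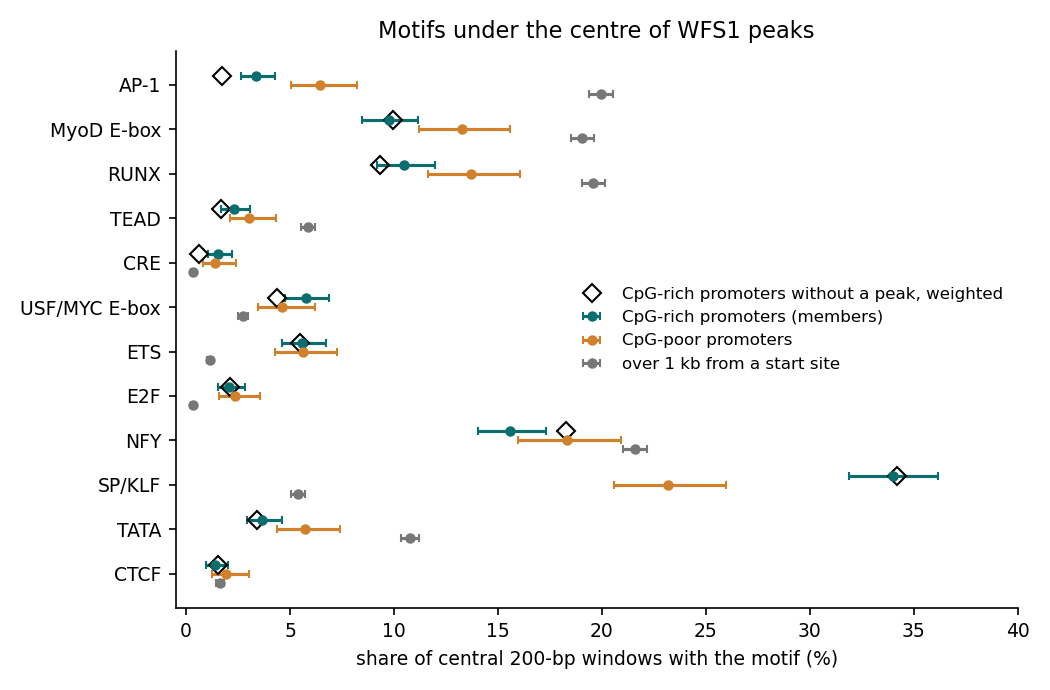
Share of central 200-bp windows that held each of 12 of the 17 motifs on either strand (x axis, percent, points with 95% Wilson intervals) for CpG-rich promoter, CpG-poor promoter and distal peaks, with open diamonds for windows at CpG-rich promoters without a peak, weighted to the same distance and GC content. AP-1 goes from 3.35% at CpG-rich promoters to 19.96% at distal peaks, and the SP/KLF box from 34.0 to 5.37%.

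Examples of the CRE, AP-1 and TEAD motifs in the widest peaks that held each outside an exon are given as 60 bp of the plus strand of GRCm38, with the motif in capitals. They were taken from anywhere in the peak. None lies in the central 200 bp of its peak, so they are not instances of the shares given above.
Irf2bpl, chr12:86884811-86884870: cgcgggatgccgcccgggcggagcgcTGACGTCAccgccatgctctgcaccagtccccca
Map2k3, chr11:60930884-60930943: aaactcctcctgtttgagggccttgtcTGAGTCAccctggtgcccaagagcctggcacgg
Nemp1, chr10:127667890-127667949: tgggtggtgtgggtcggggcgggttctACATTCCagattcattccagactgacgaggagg
The CRE window was centred 43 bp upstream of the start site of Irf2bpl. The AP-1 window was centred 1119 bp upstream of that of Map2k3, a MAP kinase kinase gene, in a peak of 1379 bp, and the TEAD window 1019 bp downstream of that of Nemp1. The CRE window held 8 CG in all, the AP-1 window 1 and the TEAD window 3. A match of letters is a description and does not show that a factor was bound.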

How the data were processed

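The deposited values were the positions of called peaks (chromosome, start and end) of 2 libraries. Per the methods of the study, mapping to GRCm38 by the authors used NextGenMap, followed by a SAMtools quality filter and MACS2 peak calls for each library. The lists hold no height, score or q-value and no read counts, so the depth behind a peak is unknown and no test between libraries was possible. The lists were merged as bedtools merge does (checked against bedtools 2.31.1). Start sites were the 5′ ends of protein-coding genes of GENCODE M21, and bases were read from GRCm38.p6, the build of the files. Shares have 95% Wilson intervals, and differences have intervals built from them. The scripts (Python 3.11.15, numpy 2.4.6, pandas 2.3.3, matplotlib 3.10.9) were tested on simulated data with planted peaks and motifs. Named are the genes at the 5 widest peaks, at the 5 peaks with the highest CpG ratio around the start site, up to 5 start sites with the most peaks, the 3 widest peaks of each list, the peaks beside each limit and the 5 leading hexamers. The members, the gene lists and the motifs were chosen with earlier results of these data known. A gene list and a gene named by this rule are not reported here. The X and Y chromosomes and unplaced sequence were left out.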

Additional observations from a re-analysis of the deposited data

How the results depend on the processing

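The limits of the rule set the numbers. With the 36-cycle list alone 810 peaks met it, with centres within 500 bp 1224, with peaks that overlap the start site 399, and with 60% GC and a CpG ratio of 0.75 980. The share of CpG-rich start sites with a peak was 16.4% with the 30-cycle list alone, 8.89% with the 36-cycle list alone, 14.2% within 500 bp, 22.8% within 2 kb and 21.01% with 60% GC and 0.75. The share called in both lists was 43.2% among peaks wider than the median of all peaks and 18.1% when at least 50% of the narrower peak had to be shared. The first of these uses the merged width, which joining enlarges for peaks in both lists, so a higher share was built in. Counted over the peaks of each list, an alternative added after the data had been seen, the share called in both lists was 27.0% for 30 cycles and 50% for 36. The difference in further peaks was 20.1 points with the 36-cycle list alone and 7.81 points at 5 to 100 kb. Of the remaining alternatives to these results, 11 counts stayed within 1.5 times the reported count, and 8 shares or differences stayed within the interval of the reported value. These counts include the numbers of motifs and of gene lists with an interval clear of 0 or of the background. Such a number does not show that the same motifs or lists stayed, and some changed as given above. No alternative reversed a difference whose interval lay clear of 0. For single motifs and lists, 105 alternatives stayed within the interval of the reported value and 8 moved out of it. A value that stayed could still have an interval that no longer lay clear of 0. TEAD with the 36-cycle list alone and the nuclear envelope list with the 30-cycle list alone are examples given above. The median width stayed under all 3 of its alternatives. The use of every annotated transcript start for the positions was added after the data had been seen. The causes were not tested. No paired analysis was possible because the cycle numbers have 1 library each and nothing was tested between them. Leaving out a replicate could not be done for the same reason, and a stricter peak threshold was not run because the lists hold no score.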
